A study of Mus musculus with 12 samples.

Results

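KIT+ spermatogonia were set against GFRα1+ spermatogonia, the far ends of a sorted series from adult mouse testes. The comparison used 6 of the 12 arrays of the series, 3 per state, taken by their labels, and 22992 genes could be tested. KIT+ cells were the EGFP+/KIT+ cells of Ngn3-EGFP transgenic mice, whose EGFP persists. GFRα1+ cells were the EGFP+ cells of Gfra1-EGFP knock-in mice, in which the reporter sits at the Gfra1 locus. Each KIT+ and each GFRα1+ sample came from a single and different animal. Of the remaining arrays, 3 held NGN3+ cells (EGFP+ without KIT, from Ngn3-EGFP mice, with 2 mice pooled for each) and 3 held whole testes of wild-type littermates of the knock-in line. The mice were C57BL/6 and 10 to 11 weeks old, and RNA came from about 10000 to 20000 sorted cells or 500000 testis cells. Because KIT+ and GFRα1+ cells came from different reporter lines, the line and the cell state cannot be told apart.

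Mouse sperm production rests on GFRα1+ spermatogonia, which receive GDNF from the tissue around them through GFRα1 and the receptor tyrosine kinase RET and signal through ERK and PI3K. On the way to differentiation spermatogonia lose these receptors, and under retinoic acid they gain the receptor KIT, divide several times and then enter meiosis. Stra8 is the classic retinoic acid target of the passage to KIT and meiosis. Haploid spermatids follow after meiosis and make sperm proteins such as protamines.

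Levels are given as the log2 of an array probe's signal minus that array's 75th percentile, so that 0 is the 75th percentile of the array, and a difference of 1 is a 2-fold difference. Each gene was read from a single probe, and levels are compared between groups and not between genes. Tests covered genes whose probe the scanner software marked as above background on every KIT+ array or on every GFRα1+ array. Genes dim in a single state were thus tested only through the brighter state. Shares of rises or falls in a list partly follow from this filter. A gene was said to rise or fall in KIT+ cells where the limma adjusted p was under 0.05. Correlations between arrays of a state were 0.990 to 0.995 for KIT+ and 0.986 to 0.992 for GFRα1+ cells. Probes well above background made up 54.8 to 62.0% on KIT+ arrays and 50.1 to 50.8% on GFRα1+ arrays. Spike-in controls, a fixed amount of foreign RNA, lay 1.62 to 1.71 log2 units above the 75th percentile on KIT+ arrays and 3.40 to 4.29 on GFRα1+ arrays. All 3 KIT+ arrays shared a slide with GFRα1+ replicate 3, while GFRα1+ replicates 1 and 2 were on another slide. The part of the spike-in and background differences in the results was not tested. For the slide, each call was also made within the shared slide, where the lone GFRα1+ array was taken to vary as the other groups did. That array, replicate 3, had spike-ins at 3.40 and 50.8% of probes above background, so this step does not reach those differences.

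KIT+ cells differed from GFRα1+ cells in most genes tested. In KIT+ cells 6110 genes rose (26.6%) and 9081 fell (39.5%), together 66.1% of those tested, and on 70.3% of genes the 3 KIT+ arrays did not overlap the 3 GFRα1+ arrays. The median log2 ratio of all genes was −0.16, and it moved to −0.03 when the percentile was taken over probes well above background on every sorted array. Within the shared slide 4571 of the rises and 6579 of the falls were called again, and 0 were called the other way. At least 4-fold, 1764 genes rose and 904 fell, and for 135 of these rises the level in whole testes was no higher than in KIT+ cells.

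Many of the rises were genes far brighter in whole testes. Whole testes lay at least 2 log2 units above KIT+ cells for 2932 of the 6110 rises (48.0%), against 18.0% of all genes tested, and lay at or below KIT+ cells for 2132 rises (34.9%). This last number was 1304 within the shared slide and 1358 with slide as a block. In a fit of all 12 arrays, whole testes were higher than KIT+ cells for 3773 of the rises, lower for 1911 and not different by the test for 426. In bulk RNA, fewer cells of a type and less RNA per cell cannot be told apart.

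**Figure D1:**
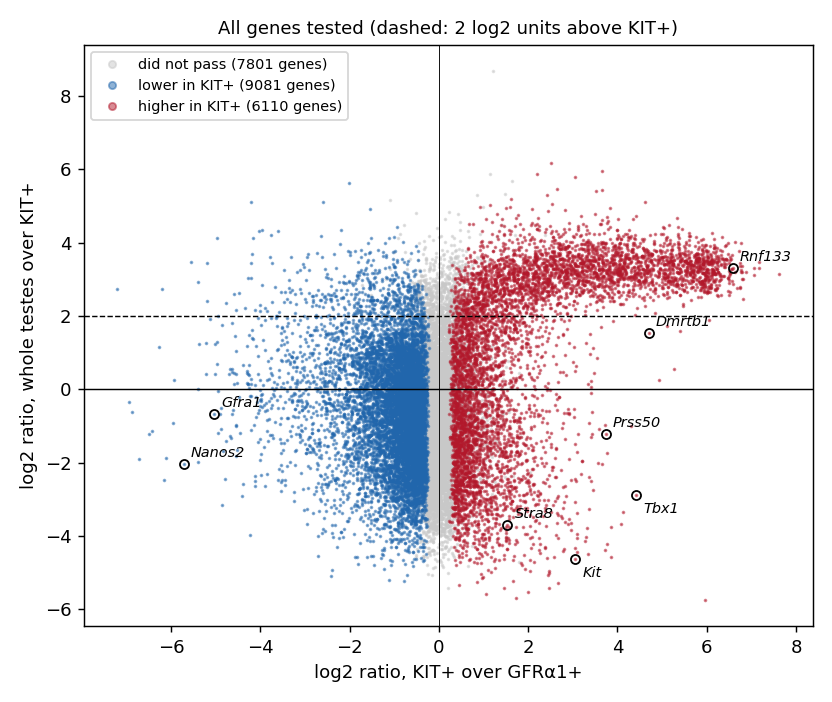
Each point is a gene tested, with the log2 ratio of KIT+ over GFRα1+ cells on the horizontal axis and that of whole testes over KIT+ cells on the vertical axis. Rises are red (6110), falls blue (9081), other genes grey, and the dashed line lies 2 log2 units above KIT+. The rises form a band above the dashed line (2932 genes, with Rnf133) and a group below 0 (2132 genes, with Kit, Stra8 and Tbx1).

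The sort markers followed the labels. Kit, the receptor for stem cell factor, stood at 4.46, 4.67 and 4.51 on the KIT+ arrays, against 1.58, 1.36 and 1.57 on the GFRα1+ arrays. The groups lay far apart, an 8.26-fold rise (log2 ratio 3.05 ± 0.25 SE, adjusted p = 9.16e-06). Gfra1, the GDNF co-receptor, stood at −3.32, −3.42 and −3.41 in KIT+ cells and at 1.79, 1.48 and 1.69 in GFRα1+ cells. It was 32.8-fold lower in KIT+ cells (log2 ratio −5.04 ± 0.14, adjusted p = 1.45e-07), and the knock-in sits at this locus in the GFRα1+ animals. Stra8 stood at 7.07, 7.27 and 6.91 in KIT+ cells, against 5.45, 5.50 and 5.72 in GFRα1+ cells. Its rise of 1.53 ± 0.22 (adjusted p = 0.000291) was smaller than that of Kit, and in both states it lay above the 75th percentile. By the array's annotation (build mm9) the Kit probe lies at chr5:76052394-76052453, the Gfra1 probe at chr19:58311604-58311663 and the Stra8 probe at chr6:34889237-34889296.

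Neurog3, the transcription factor that marks the intermediate state, gave a mixed reading. On the probe used it stood at 2.92, 2.82 and 2.59 in KIT+ cells and 3.91, 4.33 and 4.14 in GFRα1+ cells, and it was highest in NGN3+ cells (mean 5.23). Its log2 ratio was −1.35 ± 0.21 (adjusted p = 0.000516). A second, dimmer probe, above background on none of the GFRα1+ arrays, lay 1.42 higher in KIT+ cells, so no direction is given for this gene.

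**Figure D2:**
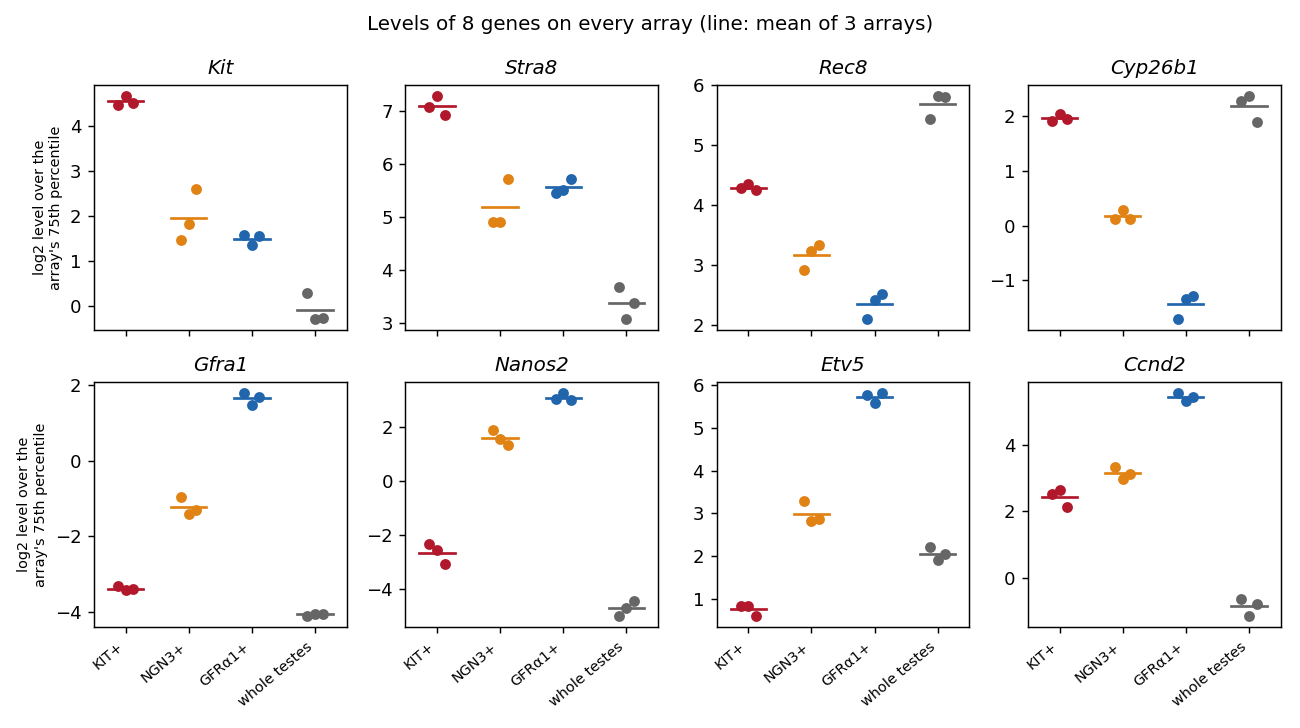
Log2 level on every array (points) and the mean of 3 arrays (line) for 8 genes in KIT+, NGN3+ and GFRα1+ cells and whole testes. Kit, Stra8, Rec8 and Cyp26b1 were highest among the sorted cells in KIT+ arrays, and Gfra1, Nanos2, Etv5 and Ccnd2 were lowest in them, with Gfra1 at −3.42 to −3.32 against 1.48 to 1.79 in GFRα1+ arrays.

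Among genes measured on all 6 arrays, Tcl1, a coactivator of the kinase AKT, fell furthest. It stood at −1.30, −1.61 and −1.32 in KIT+ cells, against 5.21, 5.10 and 4.97 in GFRα1+ cells, a 90.6-fold lower level. Foxc2, a forkhead factor, stood at −2.69, −3.25 and −3.07 in KIT+ cells and at 3.48, 3.35 and 3.45 in GFRα1+ cells, 86.2-fold lower. The leading genes were taken only among those whose states did not overlap.

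The homeobox gene Irx1 was 71.6-fold lower in KIT+ cells, the surface glycoprotein gene Cd93 47.2-fold, the T-box gene Eomes 42.0-fold and the zinc finger gene Zic1 41.9-fold. Smoc2, which encodes a secreted matrix protein, stood at 0.01, −0.13 and −0.03 in KIT+ cells and at 5.37, 4.99 and 5.17 in GFRα1+ cells. Arhgap9, which encodes a GTPase-activating protein, and Crygs, a crystallin gene known from the lens, were each 29.7-fold lower. The 15 leading falls ranged in log2 ratio from −6.50 to −4.89, with adjusted p from 1.31e-07 to 6.64e-07.

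A further 177 falls were above background on none of the KIT+ arrays, and for these the fall is a bound. The bound sets the mean in GFRα1+ cells against, on each KIT+ array, the higher of the gene's own signal and the lowest signal called well above background there. T, the T-box factor brachyury, was at least 53.5-fold lower, with 1.07, 0.90 and 0.93 on the GFRα1+ arrays. Ier3, an immediate early gene, was at least 31.5-fold lower, the potassium channel gene Kcnj15 at least 25.1-fold and Mtus1, which encodes a microtubule-associated protein, at least 21.4-fold. Ecrg4 was at least 38.4-fold lower, but its GFRα1+ arrays were uneven, at 1.09, 1.65 and −1.28, with replicate 3 the lowest.

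Genes of GDNF reception and the stem cell state fell almost as a body. Of 25 genes listed, 24 were tested, all above background on every GFRα1+ array and 19 on every KIT+ array. A fall was called for 21 (87.5%, against 39.5% of all genes). Of the 24, 0 rose by limma, by the methods' t-test or at an unadjusted p under 0.05. Their median log2 ratio was −3.65 (−2.97 with genes at background set to their bound), against −0.16 for all genes. Ret stood at −3.69, −4.06 and −4.69 in KIT+ cells, where a single array was above background, and at 1.88, 1.76 and 1.77 in GFRα1+ cells, at least 61.9-fold lower. Nanos2, an RNA-binding translational repressor of male germ cells, stood at −2.34, −2.54 and −3.06 in KIT+ cells and 3.01, 3.23 and 2.98 in GFRα1+ cells (52.8-fold lower). Id4, an inhibitor of helix-loop-helix factors, stood at −1.66, −1.88 and −1.78 in KIT+ cells and 2.73, 2.78 and 2.82 in GFRα1+ cells. In all 3 genes the groups were widely separated.

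Bcl6b, a GDNF-responsive repressor, fell by 4.21 ± 0.11 on the log2 scale, the LIM homeobox gene Lhx1 by 4.38 ± 0.16 and Etv5, an ETS factor of the PEA3 group, by 4.97 ± 0.15. Falls of general undifferentiated markers were smaller. Zbtb16 (PLZF), a zinc finger repressor, stood at 3.50, 3.60 and 3.43 in KIT+ cells and 5.84, 5.89 and 5.96 in GFRα1+ cells. Sall4 fell by 1.12 ± 0.13 and Foxo1 by 0.82 ± 0.14, while Itga6 (−2.39), Cd9 (−2.09) and Thy1 (−3.10), surface proteins used to enrich stem cells, lay between these and the GDNF targets. Utf1 (−0.05 ± 0.18), Epcam (−0.20 ± 0.14) and Itgb1 (0.02 ± 0.10) did not pass.

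ERK feedback and immediate early genes fell too. Of 22 tested, 19 fell (86.4%, against 39.5% of all genes) and 2 rose (9.09%, against 26.6%), with a median of −2.59 (−2.51 with bounds). The phosphatase gene Dusp6, which switches ERK off, stood at −0.99, −1.21 and −1.00 in KIT+ cells, against 5.37, 5.02 and 5.22 in GFRα1+ cells (77.2-fold lower). Egr2 stood at −1.64, −1.92 and −1.55 in KIT+ cells and 4.53, 4.35 and 4.33 in GFRα1+ cells (68.9-fold lower). Both belong to the leading falls, which were taken only among genes without overlap between states. Among the other members, Egr1 fell by 3.81, Fos by 3.74, Etv4 by 3.45, Spry1 by 3.29, Spred2 by 2.34 and Spred1 by 1.26. The AP-1 gene Jund (0.17 ± 0.16) did not pass. The 2 rises were Fosl2 (0.43) and Etv1, above background on 1 of 3 GFRα1+ arrays and at least 1.99-fold higher, and within the shared slide neither was called.

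Genes known from the NGN3+ state were mostly lower in KIT+ cells as well. Of 11 tested, 7 fell (63.6%, against 39.5% of all genes), Neurog3 with its divided probes among them. A further 2 rose (18.2%, against 26.6%), and the median was −1.23. Nanos3, a relative of Nanos2, stood at 1.96, 1.96 and 1.66 in KIT+ cells and 4.02, 4.28 and 4.09 in GFRα1+ cells. Ddit4, an inhibitor of mTORC1, fell by 2.24 ± 0.16, the adhesion gene Cdh1 by 2.20 ± 0.22 and the RNA-binding gene Lin28a by 1.23 ± 0.20. The rises were Rarg (0.48), a retinoic acid receptor gene, and Magea4, above background on none of the GFRα1+ arrays and at least 1.28-fold higher, with the sign turned under normexp (−0.22). Only 1 rise was called without GFRα1+ replicate 1, KIT+ replicate 1 or KIT+ replicate 2, and none within the shared slide. Sox3 (−0.36 ± 0.18) and Taf7l (−0.28 ± 0.12) did not pass.

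Among rises whose level in whole testes was no higher than in KIT+ cells, Tbx1 led. This T-box factor stood at 5.43, 5.83 and 5.51 in KIT+ cells, against 1.22, 1.31 and 0.98 in GFRα1+ cells, a 21.5-fold rise (log2 ratio 4.42 ± 0.24, adjusted p = 9.08e-07). Its mean was 3.04 in NGN3+ cells and 2.72 in whole testes. Cited1, a transcriptional coactivator, stood at 6.25, 6.61 and 6.32 in KIT+ cells and 2.75, 2.65 and 2.81 in GFRα1+ cells (12.6-fold). Both were far outside the spread of either state.

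Prss50, which encodes a testis serine protease, stood at 2.32, 2.68 and 2.88 in KIT+ cells and −1.20, −1.40 and −0.71 in GFRα1+ cells (13.3-fold). Tcea3, a transcription elongation factor gene, rose 13.5-fold, and Gng3, a G protein gamma subunit gene, 11.9-fold. Scube2 and Fbln5, which encode a secreted and an extracellular matrix protein, each rose 10.6-fold. Tbkbp1, whose product binds the kinase TBK1, stood at 3.59, 3.95 and 3.64 in KIT+ cells and 0.32, 0.41 and 0.48 in GFRα1+ cells. The runt factor Runx3 rose 9.20-fold, Arhgef26, a guanine nucleotide exchange factor gene, 10.1-fold and Ppp1r14a, a myosin phosphatase inhibitor gene, 10.7-fold. Mir9-3hg (13.2-fold), Cgref1 (10.3-fold) and Phldb3 (8.61-fold) were also among the 15 leading genes. Ccl21a (13.7-fold), a chemokine gene, has near-identical copies that its probe may not separate.

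Of the 6110 rises, 1585 were above background on none of the GFRα1+ arrays, and for these the rise is a bound. Above background on none of the GFRα1+ arrays, Adamtsl5 rose at least 10.8-fold, Gal3st1, which encodes the sulfotransferase of sulfated glycolipids, at least 7.22-fold, and the homeobox genes Tlx2 and Lhx3 at least 6.43-fold and 6.19-fold. For all 135 genes that rose at least 4-fold with whole testes no higher, the NGN3+ mean lay between the other states. It lay nearer to KIT+ cells for 17 of them (12.6%). Over all 6110 rises it lay between for 72.2% and nearer to KIT+ cells for 61.2%. Of the 904 falls of that size, the NGN3+ mean lay between for 794 (87.8%) and nearer to KIT+ cells for 372. Over all 9081 falls the shares were 67.6% between and 65.1% nearer to KIT+ cells.

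**Figure D3:**
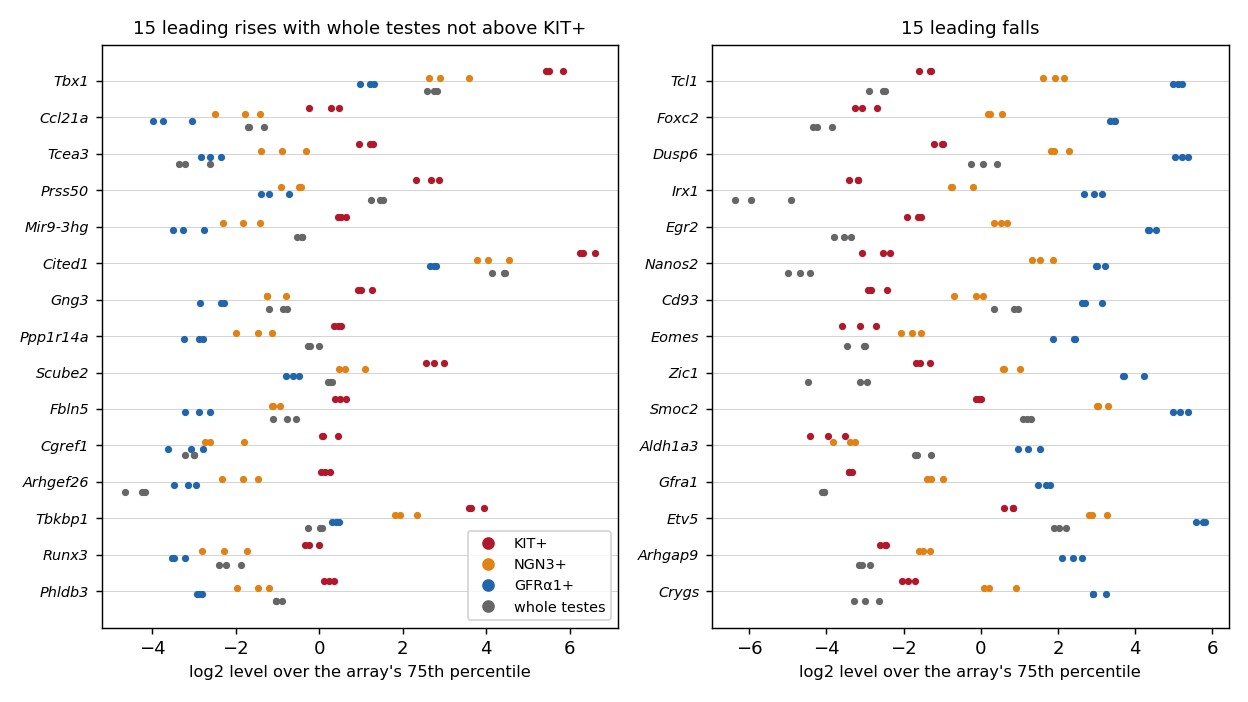
Log2 level on every array of KIT+, NGN3+ and GFRα1+ cells and whole testes, for the 15 leading rises with whole testes not above KIT+ (left) and the 15 leading falls (right), ordered by log2 ratio from top to bottom. KIT+ points (red) lie right of the GFRα1+ points (blue) in the left panel and left of them in the right panel. The lack of overlap was a condition of the choice of these genes.

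Markers of differentiating spermatogonia rose in 7 of 12 genes tested (58.3%, against 26.6% of all genes). The list had 1 fall (8.33%, against 39.5%) and a median of 0.66. Besides Kit, Stra8 and Prss50, the DM domain factor gene Dmrtb1 (Dmrt6) stood at 3.20, 3.10 and 3.48 in KIT+ cells and −1.34, −1.62 and −1.36 in GFRα1+ cells, and its mean in whole testes was higher (4.78). Rhox13 rose by 1.16 ± 0.16 and Dnmt3b by 0.91 ± 0.12. The seventh rise was the cyclin gene Ccnd1 (0.41 ± 0.12), not called within the shared slide. The cyclin gene Ccnd2 was the single fall, at 2.52, 2.65 and 2.13 in KIT+ cells and 5.56, 5.33 and 5.45 in GFRα1+ cells. Sohlh1 (−0.12 ± 0.16), Sohlh2 (0.04 ± 0.13) and Dmrt1 (0.15 ± 0.10), regulators of differentiation, did not pass. The 95% interval of the log2 ratio ran from −0.48 to 0.24 for Sohlh1 and from −0.26 to 0.35 for Sohlh2.

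Retinoic acid genes moved both ways. Of 19 tested, 12 rose (63.2%, against 26.6% of all genes) and 4 fell (21.1%, against 39.5%), with a median of 0.52. Cyp26b1, which encodes a retinoic acid degrading enzyme, stood at 1.91, 2.03 and 1.94 in KIT+ cells and −1.70, −1.34 and −1.28 in GFRα1+ cells (log2 ratio 3.40 ± 0.13, adjusted p = 3.50e-07). Aldh1a3, which encodes a retinoic acid making enzyme, stood at −3.95, −4.44 and −3.51 in KIT+ cells and 1.53, 0.97 and 1.23 in GFRα1+ cells (36.9-fold lower). Other enzymes of the list did not follow this split: Aldh1a2, which also encodes a retinoic acid making enzyme, rose by 0.52 ± 0.10, and the retinol dehydrogenase gene Rdh11, far higher in whole testes, by 1.54 ± 0.21.

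Retinoid binding genes rose together, Crabp1 by 1.93 ± 0.14, Rbp4 by 1.37 ± 0.14, Crabp2 by 1.19 ± 0.15 and Fabp5 by 1.04 ± 0.15. The receptor gene Rarb, itself a retinoic acid target, stood at −1.62, −1.24 and −1.74 in KIT+ cells and −2.74, −2.71 and −3.64 in GFRα1+ cells. Rara (−0.30 ± 0.16) and Cyp26a1 (−0.21 ± 0.24) did not pass. Dhrs3, a retinaldehyde reductase gene, fell by 1.54 ± 0.14. The other 2 falls, Aldh1a1 and Rxrg, were not called within the shared slide, and 2 falls in place of 4 were called without any single array of GFRα1+ replicates 1 and 2, NGN3+ replicates 1, 2 and 3 and KIT+ replicates 1, 2 and 3.

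Genes of meiotic entry, synapsis and recombination rose more often than they fell. Of 44 tested, 23 rose (52.3%, against 26.6% of all genes) and 9 fell (20.5%, against 39.5%), with a median of 0.44. With slide as a block 15 rose. Prdm9, the histone methyltransferase that places recombination sites, stood at −0.13, −0.08 and 0.25 in KIT+ cells and −2.29, −2.49 and −2.39 in GFRα1+ cells (log2 ratio 2.40 ± 0.14). Rec8, a meiotic cohesin gene, stood at 4.28, 4.35 and 4.24 in KIT+ cells and 2.11, 2.42 and 2.52 in GFRα1+ cells. Meioc, needed for meiotic prophase, stood at 1.20, 1.29 and 1.66 in KIT+ cells and −0.67, −0.45 and −0.28 in GFRα1+ cells. None of the 3 overlapped between states, which also held for 70.3% of all genes tested.

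Mei1 rose by 1.55 ± 0.13, Spo11, which makes the meiotic DNA breaks, by 1.17 ± 0.26, and Stag3, a cohesin gene, by 0.53 ± 0.09. The Spo11 call was lost within the shared slide (adjusted p = 0.0668). Kctd19, above background on 1 of 3 GFRα1+ arrays, was at least 41.2-fold higher, with whole testes higher still (mean 4.81, against 1.58 in KIT+ cells). Sycp3 (0.15 ± 0.11) and Sycp1 (0.05 ± 0.09), which encode proteins of the synaptonemal complex, and Tex11 (0.01 ± 0.10) did not pass. Falls were small, from −0.27 for Hormad1, whose second probe lay the other way, to −1.23 for Rad21l. Tex12, a central element gene of the synaptonemal complex, stood at 2.26, 2.45 and 2.31 in KIT+ cells and 2.74, 2.76 and 2.83 in GFRα1+ cells.

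Promoters of 4 of these genes are printed because a short motif, GCGGGAA, was frequent in the meiosis list whichever way its genes moved, and because Stra8 is the retinoic acid target of the comparison. Sequences are from RefSeq (build GRCm38.p6), from 250 bases before the transcription start to 50 after it, in lower case and 5′ to 3′ on the gene's strand, with the searched motif in capitals on either strand. Stra8 lies at chr6:34920698-34920997 (plus strand), Meioc at chr11:102665335-102665634 (plus), Stag3 at chr5:138280259-138280558 (plus) and Tex12 at chr9:50561219-50561518 (minus). In Stra8 the capitals mark AGGTCA, the hexamer that retinoic acid receptors bind in pairs, and in the others GCGGGAA.
Stra8: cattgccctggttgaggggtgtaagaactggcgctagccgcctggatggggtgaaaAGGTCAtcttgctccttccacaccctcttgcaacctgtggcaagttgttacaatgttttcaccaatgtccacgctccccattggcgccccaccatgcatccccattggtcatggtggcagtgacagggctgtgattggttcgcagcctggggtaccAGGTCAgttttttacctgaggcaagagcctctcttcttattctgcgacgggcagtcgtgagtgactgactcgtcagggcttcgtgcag
Meioc: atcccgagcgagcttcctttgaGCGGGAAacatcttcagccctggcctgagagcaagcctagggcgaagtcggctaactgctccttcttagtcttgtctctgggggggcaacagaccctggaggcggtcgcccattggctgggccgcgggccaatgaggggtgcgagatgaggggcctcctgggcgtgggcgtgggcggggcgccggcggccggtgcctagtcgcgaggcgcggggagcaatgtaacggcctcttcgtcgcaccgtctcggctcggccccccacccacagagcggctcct
Stag3: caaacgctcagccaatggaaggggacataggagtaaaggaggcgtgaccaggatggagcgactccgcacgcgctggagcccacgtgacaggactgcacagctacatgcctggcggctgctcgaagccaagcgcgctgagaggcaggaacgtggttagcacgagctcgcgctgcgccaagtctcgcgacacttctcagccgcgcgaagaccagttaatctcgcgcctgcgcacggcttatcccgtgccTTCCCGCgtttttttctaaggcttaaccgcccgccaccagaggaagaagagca
Tex12: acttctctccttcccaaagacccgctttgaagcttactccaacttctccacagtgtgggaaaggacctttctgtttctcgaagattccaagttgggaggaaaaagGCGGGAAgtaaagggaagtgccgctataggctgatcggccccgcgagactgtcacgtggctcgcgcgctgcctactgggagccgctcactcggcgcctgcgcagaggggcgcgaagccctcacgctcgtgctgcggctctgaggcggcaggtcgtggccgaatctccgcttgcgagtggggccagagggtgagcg
The Stra8 window held AGGTCA on either strand at 2 places, beginning 194 and 38 bases before the start, and not its direct repeat with a spacing of 5 bases (DR5). AGGTCA was in the windows of 18.1% of all 27025 genes with a promoter in the table, and DR5 in those of 3 genes. GCGGGAA began 228 bases before the start in Meioc, 3 in Stag3 and 145 in Tex12. It was in 15 of 36 promoters of the meiosis list (41.7%), against 5.29% of all genes and 8.79% of the genes tested, in 13 of 31 of the DNA replication list (41.9%) and in none of 17 of the retinoic acid list. Within the meiosis list the motif was held by 7 of 17 genes that rose, 5 of 8 that fell and 3 of 9 that did not pass. The E-box CACGTG was in 10 of the 36 (27.8%), against 8.09% of all genes and 11.2% of the genes tested. Among the 135 genes that rose at least 4-fold with whole testes no higher, 5 of 89 with a promoter held GCGGGAA (5.62%). Every DR5 holds AGGTCA, a gene with several promoters counts once if any holds the motif, and a match is a description of letters and not a binding site.

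DNA methylation genes split. Of 9 tested, 5 rose (55.6%, against 26.6% of all genes) and 4 fell (44.4%, against 39.5%), with a median of 0.34. Dnmt3b, a de novo methyltransferase gene, stood at 5.43, 5.71 and 5.47 in KIT+ cells and 4.69, 4.59 and 4.62 in GFRα1+ cells. Dnmt3a, the other de novo enzyme, went the opposite way, at −0.96, −0.77 and −0.78 in KIT+ cells and 0.75, 0.50 and 0.74 in GFRα1+ cells. Tet3, which encodes a 5-methylcytosine oxidase, rose by 1.12 ± 0.10, and Uhrf2 fell by 0.83 ± 0.09. The weaker members depended on single arrays: 3 rises were called without GFRα1+ replicate 1 or any 1 of the KIT+ arrays and within the shared slide, and 2 falls without GFRα1+ replicate 1, GFRα1+ replicate 3 or KIT+ replicate 3, and with a replicate block.

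Of 15 genes of H3K9 methylation and HP1 tested, 8 fell (53.3%, against 39.5% of all genes). In the list 2 rose (13.3%, against 26.6%), and the median was −0.51 (−0.21 with slide as a block). The falls of Ehmt1 and Suv39h2 were not called with slide as a block. A second Ehmt1 probe lay the other way, 0.37 higher in KIT+ cells. The demethylase gene Kdm3a stood at 2.21, 2.17 and 2.17 in KIT+ cells and 4.06, 4.07 and 3.83 in GFRα1+ cells. The methyltransferase genes Suv39h1 and Setdb1 fell by 1.32 ± 0.11 and 0.69 ± 0.11. Ehmt2 (0.04 ± 0.13) and Trim28 (0.02 ± 0.11) did not pass. The rises were Kdm4c (0.82) and Kdm4d (2.19), the second of them far higher in whole testes, and 5 genes of the list rose under quantile normalization and 1 within the shared slide.

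Germ granule and piRNA genes fell modestly in 13 of 22 (59.1%, against 39.5% of all genes). In the list 3 rose (13.6%, against 26.6%), and the median was −0.46. Ddx4, the germ cell helicase VASA, stood at 4.72, 4.83 and 4.61 in KIT+ cells and 5.47, 5.51 and 5.23 in GFRα1+ cells. Tex19.1, which holds retrotransposons in check, fell by 0.90 ± 0.12 and the PIWI gene Piwil4 by 1.44 ± 0.19. The largest rise, Tdrd6 (3.65), belonged to a gene whose KIT+ level was 10.6% of that in whole testes. Among 23 germ cell RNA-binding genes, 11 fell (47.8%, against 39.5% of all genes) and 4 rose (17.4%, against 26.6%, and 2 within the shared slide), with a median of −0.30. Igf2bp2 stood at −2.07, −2.24 and −2.55 in KIT+ cells and 1.15, 1.08 and 0.60 in GFRα1+ cells, and Ybx2, at 13.9% of whole testes, rose by 4.01. Dazl, which is needed for germ cell development, did not pass (−0.23 ± 0.11). Msi2 fell by 2.35 on its probe, but a second, dimmer probe lay 2.41 higher in KIT+ cells.

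On the X chromosome 246 of 790 genes tested rose (31.1%) and 378 fell (47.8%), within the range of the autosomes (20.4 to 33.1% higher and 33.8 to 51.3% lower). Of the reproductive homeobox (Rhox) family and Esx1, which lie there, 11 genes were tested. Of these, 3 rose (27.3%, against 26.6% of all genes) and 5 fell (45.5%, against 39.5%). Their median was −0.51 (−0.27 without GFRα1+ replicate 3 and −0.94 within the shared slide). Esx1, an X-linked homeobox gene outside the Rhox cluster, stood at 3.71, 3.77 and 4.02 in KIT+ cells and 0.87, 0.84 and 1.06 in GFRα1+ cells. Rhox13 stood at 4.09, 4.45 and 4.43 in KIT+ cells and 3.13, 2.95 and 3.41 in GFRα1+ cells. Rhox10, by contrast, stood at 2.87, 3.01 and 2.42 in KIT+ cells and 3.57, 3.99 and 3.99 in GFRα1+ cells. Members of the family thus moved in opposite directions. Rhox11, above background on none of the GFRα1+ arrays, was at least 4.56-fold higher, and its level in whole testes was higher still.

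Cdkn1b (p27), a kinase inhibitor gene, stood at −0.98, −1.03 and −1.25 in KIT+ cells and 2.26, 2.61 and 2.25 in GFRα1+ cells (log2 ratio −3.46 ± 0.21). With Ccnd2, Cdkn1c (−1.54 ± 0.13), Cdkn1a (−1.46 ± 0.17) and Cdk4 (−1.09 ± 0.15), 5 of 12 genes of D cyclins and kinase inhibitors fell (41.7%, against 39.5% of all genes). In the same list 4 rose (33.3%, against 26.6%, and 2 within the shared slide), among them Ccnd1, and the median was 0.06. Both shares were thus near those of all genes.

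Of 38 DNA replication genes 7 rose and 10 fell, both shares below those of all genes, with a median of −0.03. The helicase genes Mcm2 to Mcm7 and Pcna did not pass, with ratios from −0.17 for Mcm3 to 0.15 for Mcm4. Pola1, a DNA polymerase alpha gene, was the steepest fall, at 0.24, 0.42 and 0.18 in KIT+ cells and 2.03, 2.02 and 1.88 in GFRα1+ cells. The rises numbered 3 without GFRα1+ replicate 1 or 2 or without any 1 of the KIT+ arrays, 2 within the shared slide and 15 under quantile normalization, so their number rests on the processing. Mitosis genes rose in 9 of 34 (26.5%, against 26.6% of all genes) and fell in 6 (17.6%, against 39.5%), with a median of 0.11. Mitosis rises numbered 4 with slide as a block and 15 under quantile normalization. Mki67 (0.37 ± 0.26) and Top2a (0.20 ± 0.15) did not pass.

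Of 21 glycolysis genes, 10 fell (47.6%, against 39.5% of all genes; 6 under quantile normalization) and 4 rose (19%, against 26.6%), with a median of −0.41. Pdk1, a pyruvate dehydrogenase kinase gene, stood at −1.00, −0.88 and −1.26 in KIT+ cells and 2.12, 2.23 and 2.31 in GFRα1+ cells. Slc2a1, the glucose transporter GLUT1, stood at 0.44, 0.51 and 0.52 in KIT+ cells and 2.85, 2.48 and 2.80 in GFRα1+ cells. Pkm fell by 1.49 ± 0.13. Among the rises, Hk1 (1.69), Tpi1 (1.71) and Ldha (1.28) were far higher in whole testes. Cholesterol genes rose in 4 of 22 (18.2%, against 26.6% of all genes) and fell in 5 (22.7%, against 39.5%), with a median of 0.03. The falls numbered 2 without KIT+ replicate 3 and 1 within the shared slide, and the rises 8 under quantile normalization, 9 with the other percentile and 7 with normexp. Tm7sf2 (1.76 ± 0.14), which encodes a sterol reductase, was the largest rise.

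Growth factor receptors fell in 16 of 27 genes (59.3%, against 39.5% of all genes) and rose in 7 (25.9%, against 26.6%), with a median of −0.91. Pdgfra stood at −3.62, −3.66 and −3.76 in KIT+ cells and 0.11, −0.09 and −0.43 in GFRα1+ cells. Lifr, the LIF receptor gene, fell by 2.26 ± 0.13, Bmpr1b by 2.19 ± 0.14 and Igf1r by 1.48 ± 0.20. Fgfr3 rose and stood at 1.90, 2.16 and 2.25 in KIT+ cells and 0.57, 0.46 and 0.66 in GFRα1+ cells, and Met rose by 1.48 ± 0.14. Fgfr1, by contrast, fell by 0.75 ± 0.14. Of 28 adhesion and guidance genes 10 fell (35.7%, against 39.5% of all genes) and 8 rose (28.6%, against 26.6%, and 5 with slide as a block), with a median of −0.17, so the list as a whole was close to all genes. The ephrin receptor gene Epha2 stood at −0.55, −0.42 and −0.34 in KIT+ cells and 3.86, 3.79 and 3.70 in GFRα1+ cells, while Ephb4 stood at 1.35, 1.52 and 1.39 in KIT+ cells and −0.15, −0.24 and −0.03 in GFRα1+ cells. Ncam1 fell by 3.30 ± 0.17 and the cadherin gene Cdh3 by 2.22 ± 0.12.

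**Figure D4:**
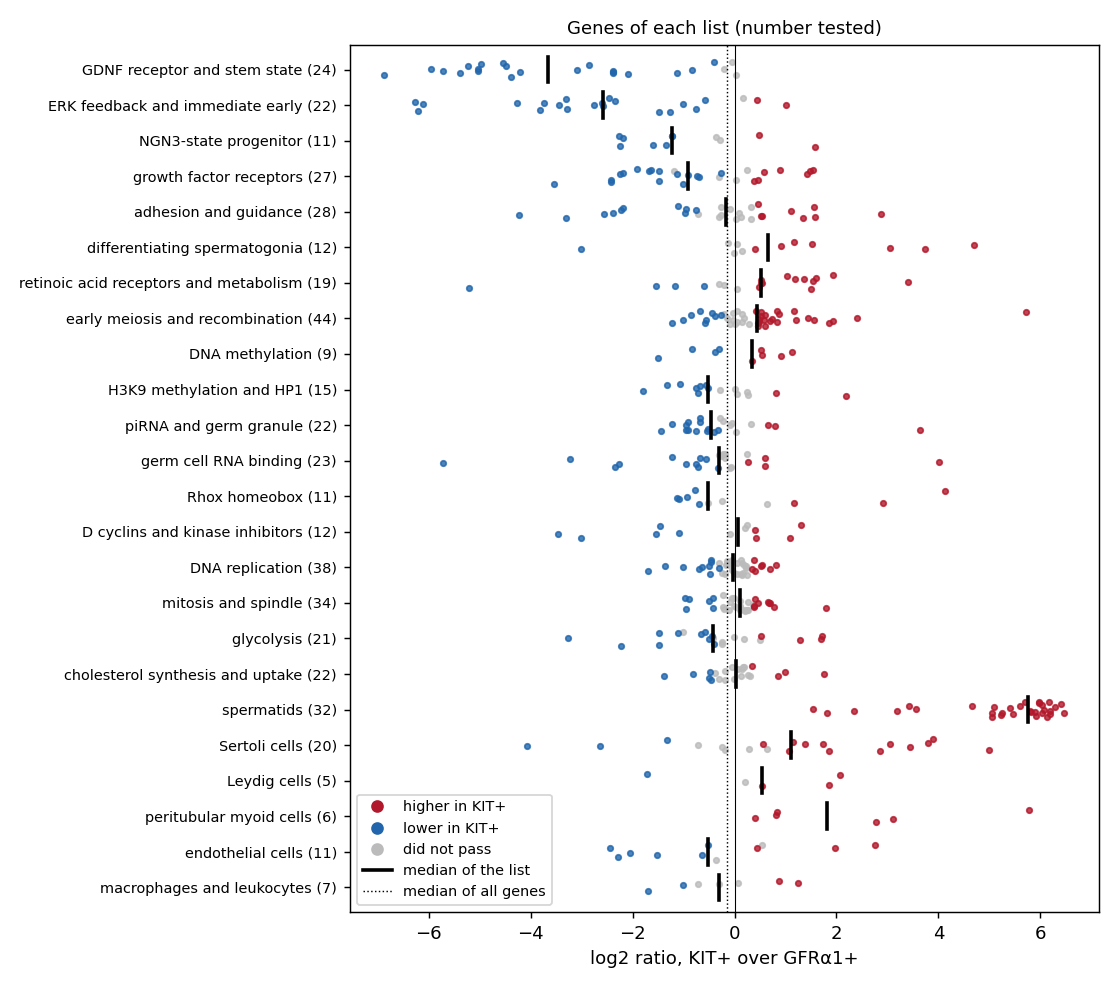
Log2 ratio of KIT+ over GFRα1+ cells for each tested gene of 24 lists, with the number tested in brackets, rises in red, falls in blue, other genes in grey, the list's median as a bar and the median of all genes (−0.16) as a dotted line. The stem state list (median −3.65) lies furthest left and the spermatid list (median 5.75) furthest right.

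Genes of haploid spermatids formed the far right of the comparison. Of the 32 listed, all were above background on every KIT+ array and 27 on every GFRα1+ array. All 32 listed genes rose, within the shared slide as well, with a median of 5.75 (5.67 with bounds), and 28 of them were at least 2 log2 units higher in whole testes than in KIT+ cells. Hils1, a spermatid linker histone gene, stood at 6.02, 5.46 and 5.84 in KIT+ cells and −0.46, −0.64 and −0.16 in GFRα1+ cells, and its whole testis arrays read 8.35, 8.62 and 8.54. Odf1, which encodes a sperm tail protein, stood at 4.30, 3.39 and 4.06 in KIT+ cells and −2.38, −2.74 and −1.64 in GFRα1+ cells. Prm1 (protamine 1) was the closest to its whole testis level, at 9.12, 9.10 and 9.05 in KIT+ cells, against 3.84, 3.18 and 4.48 in GFRα1+ cells and 9.46, 9.84 and 9.65 in whole testes. For Hils1 and Odf1 KIT+ replicate 2 was the lowest of its state.

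Over the 32 spermatid genes the median KIT+ level was 12.1% of that in whole testes. Their summed linear level, in units of the 75th percentile, was 1994 to 2632 on the KIT+ arrays and 46.3 to 87.4 on the GFRα1+ arrays, and 8730 to 10382 on those of whole testes. The 8 leading rises far higher in whole testes were of the same kind: Rnf133, a ubiquitin ligase gene, rose 95.8-fold, and the KIT+ level was 10.2% of that in whole testes. The histone variant genes H2al1n (which has near-identical copies) and H1f7, the protease gene Prss55, and Tmco5, AI507597, 1700034E13Rik and Cep295nl rose 83.8-fold to 91.2-fold, with KIT+ levels 8.74 to 12.7% of whole testes.

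A wider set was chosen by its levels in whole testes and GFRα1+ cells, so its low values in GFRα1+ cells are no finding. It held the 439 genes with a mean log2 level of at least 2 in whole testes and at background on every GFRα1+ array. Their median level was 11.2, 6.73 and 9.55% of whole testes on the KIT+ arrays, and 0.242, 0.229 and 0.291% on the GFRα1+ arrays. On the NGN3+ arrays, from the same reporter line as the KIT+ cells, it was 5.02, 8.96 and 8.98%. The 3 KIT+ arrays were ordered alike for this set and for the spermatid sums, with replicate 1 highest and replicate 2 lowest. The part of RNA from later germ cells in the KIT+ rises was not tested.

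**Figure D5:**
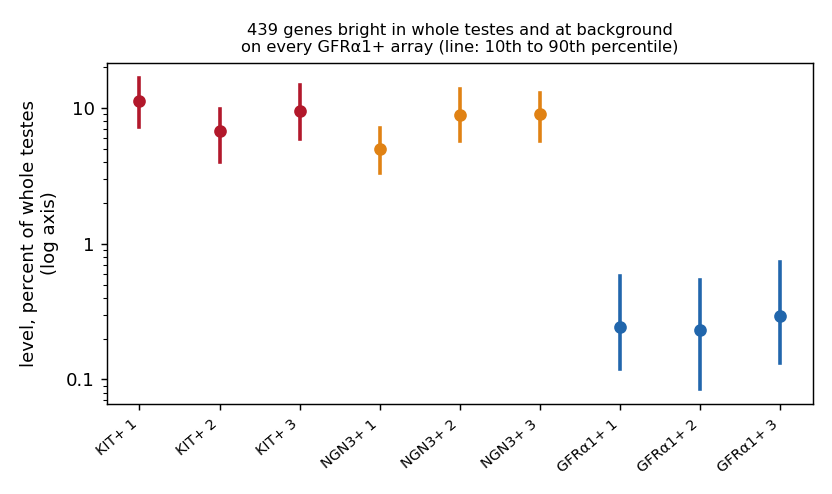
Level as a percent of the whole testis mean, on a log axis, for 439 genes bright in whole testes and at background on every GFRα1+ array. Points are medians over genes and lines run from the 10th to the 90th percentile, and the KIT+ arrays range from 6.73 to 11.2% and the NGN3+ arrays from 5.02 to 8.98%. The low position of the GFRα1+ arrays (0.229 to 0.291%) was fixed by the choice of genes.

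Markers of somatic testis cells gave a divided picture. Of 25 Sertoli cell genes listed, 20 were tested, all above background on every KIT+ array and 16 on every GFRα1+ array. Of the 20, 12 rose (60%, against 26.6% of all genes) and 3 fell (15%, against 39.5%). Their median was 1.12 (0.98 with bounds), and 6 fell when GFRα1+ replicate 3 was left out. Their summed level was 127 to 165 in KIT+ cells and 112 to 124 in GFRα1+ cells, against 975 to 1070 in whole testes. Inha, the inhibin alpha gene, stood at −0.69, −0.51 and −0.43 in KIT+ cells and −4.53, −3.75 and −3.66 in GFRα1+ cells, with 2 of 3 GFRα1+ arrays above background (at least 9.69-fold higher). Krt18, by contrast, fell by 4.06. The rises of the list include Fabp9, which may not be particular to Sertoli cells (log2 ratio 4.70 within the shared slide). Among the defining genes, Sox9, Fshr, Amh and Kitl were too dim to be tested in either state.

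Of 9 peritubular myoid genes 6 were tested, all above background on every KIT+ array and 4 on every GFRα1+ array. All 6 rose (100%, against 26.6% of all genes). The number of rises among them was 4 with slide as a block. It was also 4 without GFRα1+ replicate 2, GFRα1+ replicate 3, KIT+ replicate 1 or KIT+ replicate 2. The sum of the myoid genes was 15.9 to 20.4 in KIT+ cells, 2.73 to 2.95 in GFRα1+ cells and 139 to 162 in whole testes. Actg2, a smooth muscle actin gene, stood at 3.91, 3.36 and 3.73 in KIT+ cells and −2.05, −2.35 and −1.92 in GFRα1+ cells. Of the Leydig genes 3 of 5 tested rose (60%, against 26.6% of all genes) and Cyp17a1 fell. Leydig sums were 10.8 to 11.2 in KIT+ cells and 9.48 to 15.3 in GFRα1+ cells. Endothelial genes went both ways, with 6 of 11 lower (54.5%, against 39.5% of all genes). Flt1 fell by 2.28, Tek at least 4.39-fold with 1 of 3 KIT+ arrays above background, and Cdh5 at least 4.15-fold with 2 of 3. In the same list 3 were higher, Tie1, Cldn5 and Egfl7 (27.3%, against 26.6%, and Tie1 alone with slide as a block). Endothelial sums were 25.3 to 30.0 in KIT+ cells and 28.9 to 31.9 in GFRα1+ cells. Of 7 macrophage and leukocyte genes 2 rose (28.6%, against 26.6% of all genes) and 2 fell (28.6%, against 39.5%). Their rises numbered 0 with slide as a block and 0 by the methods' t-test. Their falls numbered 4 without GFRα1+ replicate 3 and 1 with slide as a block. Of the red blood cell genes 1 of 3 tested rose (33.3%, against 26.6% of all genes), and 2 did without GFRα1+ replicate 3 or KIT+ replicate 2. The part of these cells in the other results was not tested.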

How the data were processed

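The authors hybridised Cy3-labelled RNA (25 ng of total RNA each) to Agilent 1-colour mouse arrays of 55681 probes and deposited, per array, spot intensity values extracted with Agilent Feature Extraction (versions 10.7.1.1 and 10.7.3.1 in the headers). They also deposited a log2 table scaled to the 75th percentile, which differed from the log2 values used here by a constant within 0.01 on every array, in scale and centring. Control and outlier spots were left out, and the log2 of each processed signal was taken relative to the 75th percentile of its array. Of the probes of a gene the one with the highest mean over the 9 sorted arrays was kept, and 23606 of 36315 names were RefSeq symbols. KIT+ was set against GFRα1+ with limma 3.58.1 in R 4.3.3 (lmFit and eBayes, no covariates, Benjamini-Hochberg) over the 9 sorted arrays, a fit tested on simulated data. Exact permutation of 3 against 3 arrays cannot go below p = 0.1, so single values have no such test. The methods' t-test, other scalings, filters, slide and replicate blocks and left-out arrays were alternatives. The comparison, gene lists and motifs were chosen with earlier results of these data known, and the AGGTCA hexamer was added after the values were seen. Named genes were the 4 markers, the 15 leading falls and 15 leading rises with whole testes not above KIT+, 8 rises far higher in whole testes, 5 bounds each way and the list members with the smallest adjusted p. Other list members named were chosen after their values were seen. The leading falls, leading rises and bounds were taken only among called genes whose KIT+ and GFRα1+ arrays did not overlap. The number of arrays limits the precision. Some genes that these rules select are not reported here.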

Additional observations from a re-analysis of the deposited data

How the results depend on the processing

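Over all genes, the numbers of rises, of falls and of rises by whole testis level stayed within 1.5 times their values under the alternatives run, except for those given next. Counts in single gene lists moved further, and in 18 lists a count of rises or falls changed by over 1.5 times under at least 1 alternative. With probes well above background on all 6 arrays, which tests fewer genes, 3971 genes rose, 1382 of them far higher in whole testes, and with a gap of 3 log2 units in place of 2 that class held 1844. Rises with whole testes not above KIT+ were 1358 when slide was a block and 1304 in the shared slide alone. Leaving out 1 sorted array at a time gave 5512 to 6520 rises, 7875 to 9166 falls, 2802 to 3150 rises far higher in whole testes and 1764 to 2395 not higher. Kit, Stra8 and Gfra1 were called in the same direction under every alternative, Kit at 2.98 and Stra8 at 1.37 within the shared slide. Of 364 named genes called, 59 lost their call when slide was a block and 70 in the shared slide alone, and 0 turned round. Same-numbered KIT+ and GFRα1+ arrays had correlated deviations of −0.02, 0.21 and 0.04, so the numbers were not taken to pair the samples, and with a replicate block 5900 genes rose and 8550 fell. Log2 ratios changed sign with the mean of all probes of a gene for Neurog3 (0.032), Msi2 (0.033), Ccnb1 (0.051), Tex15 (−0.25), Msh4 (−0.31), Nuf2 (−0.10), Hsd17b7 (−0.057) and Fgfr2 (−0.70), with normexp for Magea4 (−0.22), Mei4 (−0.059), Sycp2 (−0.31), Plxna2 (−0.030), Itga5 (−0.16) and Ptprc (−0.13), with quantile normalization for Mcm7 (0.31), Gapdh (0.091) and Gpi1 (0.10), and within the shared slide for Cldn11 (0.66). Sign changes of genes called neither in the main fit nor under the alternative are not listed. The cause of the changes was not tested. None of the alternatives scaled the arrays to the spike-ins. Probes near background limit the folds of dim genes, which are given as bounds.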
